A study of Mus musculus with 36 samples.

Results

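The dual-specificity MAP kinase phosphatases described here are the products of 9 mouse genes, *Dusp1*, *Dusp3*, *Dusp4*, *Dusp5*, *Dusp6*, *Dusp7*, *Dusp8*, *Dusp10* and *Dusp16*. They were found by gene symbol among the 54347 genes of the deposited table, where each symbol matched 1 row. All 9 were above 1 CPM (counts relative to library size, after TMM scaling) in each of the 36 libraries. The lowest single value was 4.30 CPM, for *Dusp8* in a butyrate-treated macrophage library. None of the 9 therefore passed the filter on low counts through 1 group alone. *Dusp3* and *Dusp16* were selected on their butyrate values, the former in macrophages and the latter in hepatocytes, where an earlier look at these data had ranked them high by P among decreases. Which values chose the other 7 genes is not recorded, and the effects of butyrate on the 9 mRNAs are therefore given as a description, with no p-value.

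RNA was sequenced from primary adipocytes, bone marrow-derived macrophages, skeletal myotubes (called myocytes in the study) and hepatocytes of mice labelled C57Bl/6. The study's methods name male donors for every cell type and the substrain C57BL/6NHsd for the hepatocytes. They add that some primary cells, of a type not named, were obtained in Munich, where male C57BL/6N mice were kept. Other animals were housed in Wageningen. Which cell types came from which site is not stated, so site and cell type cannot be told apart. Each cell type received PBS as control, 5 mM β-hydroxybutyrate (βOHB) or 5 mM butyrate for 6 h, with 3 libraries in each of the 12 groups. Adipocytes were differentiated in culture from the stromal vascular cells of inguinal fat pooled from several male mice, macrophages grew in medium conditioned by L929 cells, myotubes were differentiated from hindlimb myoblasts, and hepatocytes were freshly isolated by collagenase perfusion. Adipocytes and macrophages were treated in the same medium, whereas myotubes and hepatocytes each had a medium of their own, so that for those cell types the cells and the medium cannot be told apart. The labels do not say whether the 3 libraries of a group came from separate cultures or animals, and the p-values measure the spread between these libraries, which may be technical. Library totals ranged from 18366289 to 23221473 estimated counts.

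MAP kinases such as ERK, JNK and p38 are switched on by phosphorylation of a threonine and a neighbouring tyrosine, and dual-specificity phosphatases remove both phosphates. DUSP1, DUSP4 and DUSP5 are inducible nuclear enzymes, of which DUSP5 is selective for ERK. DUSP6 and DUSP7 reside in the cytoplasm and prefer ERK, whereas DUSP8, DUSP10 and DUSP16 prefer JNK and p38. DUSP3 is a small atypical member that lacks the kinase-binding domain of the others. Many of these genes are themselves transcribed in response to the kinases that their products inactivate, which makes them feedback regulators. Butyrate, a short-chain fatty acid, inhibits histone deacetylases. βOHB, a ketone body made by the liver, differs from butyrate by a hydroxyl group on the third carbon.

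RefSeq promoter sequences (GRCm38.p6) were found for 8 of the 9 genes and searched on both strands from 250 bases before to 50 bases after the start. The cAMP response element, TGACGTCA, was the motif with the fewest matches among all promoters, in 1.8% of 32851. Among the genes here, there was 1 match in *Dusp1* and 2 in *Dusp8*. Its core TGACG, which every full element contains on each strand, was found in 20.8% of all promoters and additionally in *Dusp5* and *Dusp16*. The GC box GGGCGG was found in 35.7% of all promoters and in 7 of the 8, the exception being *Dusp6*. The AP-1 letters TGANTCA (7.8% of all promoters), the ETS letters CCGGAAG (8.9%) and the TATA letters TATAAA (13.6%) were found in 0 of the 8. These matches describe letters and not bound sites. The 250 bases before the start are shown for *Dusp1* and *Dusp8*, which carry the full element, and for *Dusp3* and *Dusp16*, whose mRNAs were lower under butyrate in all 4 cell types. Capitals mark TGACGTCA and the GC box on either strand. The *Dusp1* sequence is chr17:26508473-26508722 (minus strand), *Dusp8* is chr7:142095285-142095534 (minus strand), *Dusp3* is chr11:101984792-101985041 (minus strand) and *Dusp16* is chr6:134792629-134792878 (minus strand), each written 5′ to 3′ on its own strand.
Dusp1: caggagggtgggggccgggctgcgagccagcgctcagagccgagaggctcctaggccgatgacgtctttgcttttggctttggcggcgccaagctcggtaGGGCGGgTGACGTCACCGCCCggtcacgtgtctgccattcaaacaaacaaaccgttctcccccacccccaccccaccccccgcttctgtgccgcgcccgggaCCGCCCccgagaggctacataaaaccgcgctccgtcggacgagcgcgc
Dusp8: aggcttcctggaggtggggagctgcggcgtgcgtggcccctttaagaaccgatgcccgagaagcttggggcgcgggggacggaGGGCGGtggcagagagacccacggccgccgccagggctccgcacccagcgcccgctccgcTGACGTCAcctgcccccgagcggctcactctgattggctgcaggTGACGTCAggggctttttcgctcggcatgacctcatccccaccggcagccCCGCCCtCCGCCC
Dusp3: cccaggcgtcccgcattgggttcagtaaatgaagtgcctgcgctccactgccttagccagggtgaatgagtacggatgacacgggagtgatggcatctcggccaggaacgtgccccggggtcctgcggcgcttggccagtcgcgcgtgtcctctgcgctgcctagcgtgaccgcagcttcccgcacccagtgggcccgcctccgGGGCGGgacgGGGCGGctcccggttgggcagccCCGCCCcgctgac
Dusp16: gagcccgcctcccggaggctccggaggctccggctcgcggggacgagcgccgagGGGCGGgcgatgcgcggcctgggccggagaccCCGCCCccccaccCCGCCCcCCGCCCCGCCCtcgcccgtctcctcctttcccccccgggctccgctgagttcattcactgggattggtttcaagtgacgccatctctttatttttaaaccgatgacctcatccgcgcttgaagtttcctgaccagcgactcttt

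In the control libraries, each cell type had a pattern of its own. *Dusp16*, on chromosome 6 from 134715468 to 134792625, was at 482 ± 31.3 CPM in hepatocytes, against 45.1 ± 3.17 in myotubes, 31.9 ± 0.772 in adipocytes and 21.3 ± 0.419 in macrophages (SD, n = 3). The hepatocyte mean was thus 22.6 times the macrophage mean. *Dusp10*, on chromosome 1 from 184013302 to 184075636, followed the same order, with 138 ± 11.7 CPM in hepatocytes, 70.8 ± 1.10 in myotubes, 36.2 ± 5.57 in adipocytes and 6.60 ± 0.506 in macrophages, a ratio of 20.9 between the highest and the lowest. The libraries of neighbouring cell types in these orders did not overlap.

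Myotubes had the highest control levels of *Dusp4*, *Dusp5*, *Dusp6* and *Dusp8*. For *Dusp8* (chromosome 7 from 142079490 to 142095843), they were at 47.7 ± 8.84 CPM against 5.63 ± 0.521 in macrophages, with hepatocytes at 31.8 ± 3.38 and adipocytes at 7.95 ± 0.855. *Dusp4* (chromosome 8 from 34807297 to 34819894) was at 74.9 ± 5.88 CPM in myotubes and 14.1 ± 1.65 in hepatocytes, and macrophages and adipocytes, at 31.5 ± 2.98 and 30.0 ± 0.584, overlapped. *Dusp6* (chromosome 10 from 99263231 to 99267489) fell into 4 separate levels, with 91.5 ± 1.28 CPM in myotubes, 72.9 ± 8.50 in hepatocytes, 41.5 ± 2.58 in macrophages and 23.9 ± 0.816 in adipocytes. *Dusp5* (chromosome 19 from 53529109 to 53542431) overlapped between myotubes and hepatocytes, at 36.7 ± 2.09 and 34.4 ± 3.29 CPM, and was lower in adipocytes (14.6 ± 3.62) and macrophages (10.3 ± 0.946).

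Macrophages had the highest control levels of *Dusp3* and *Dusp7*. *Dusp3* (chromosome 11 from 101971143 to 101987013) was at 312 ± 9.46 CPM in macrophages and 100.4 ± 2.65 in adipocytes, with hepatocytes (256 ± 20.3) and myotubes (247 ± 17.9) overlapping between them. *Dusp7* (chromosome 9 from 106368632 to 106375724) ranged from 54.5 ± 1.48 CPM in macrophages over adipocytes (36.9 ± 1.09) and myotubes (21.3 ± 0.958) to 10.3 ± 0.583 in hepatocytes. *Dusp1* (chromosome 17 from 26505590 to 26562128) was at 87.7 ± 5.67 CPM in hepatocytes, 51.8 ± 1.19 in macrophages, 43.2 ± 2.02 in myotubes and 21.2 ± 0.601 in adipocytes, with no overlap between neighbours. The positions are those of the GENCODE M21 annotation of GRCm38.

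**Figure D1:**
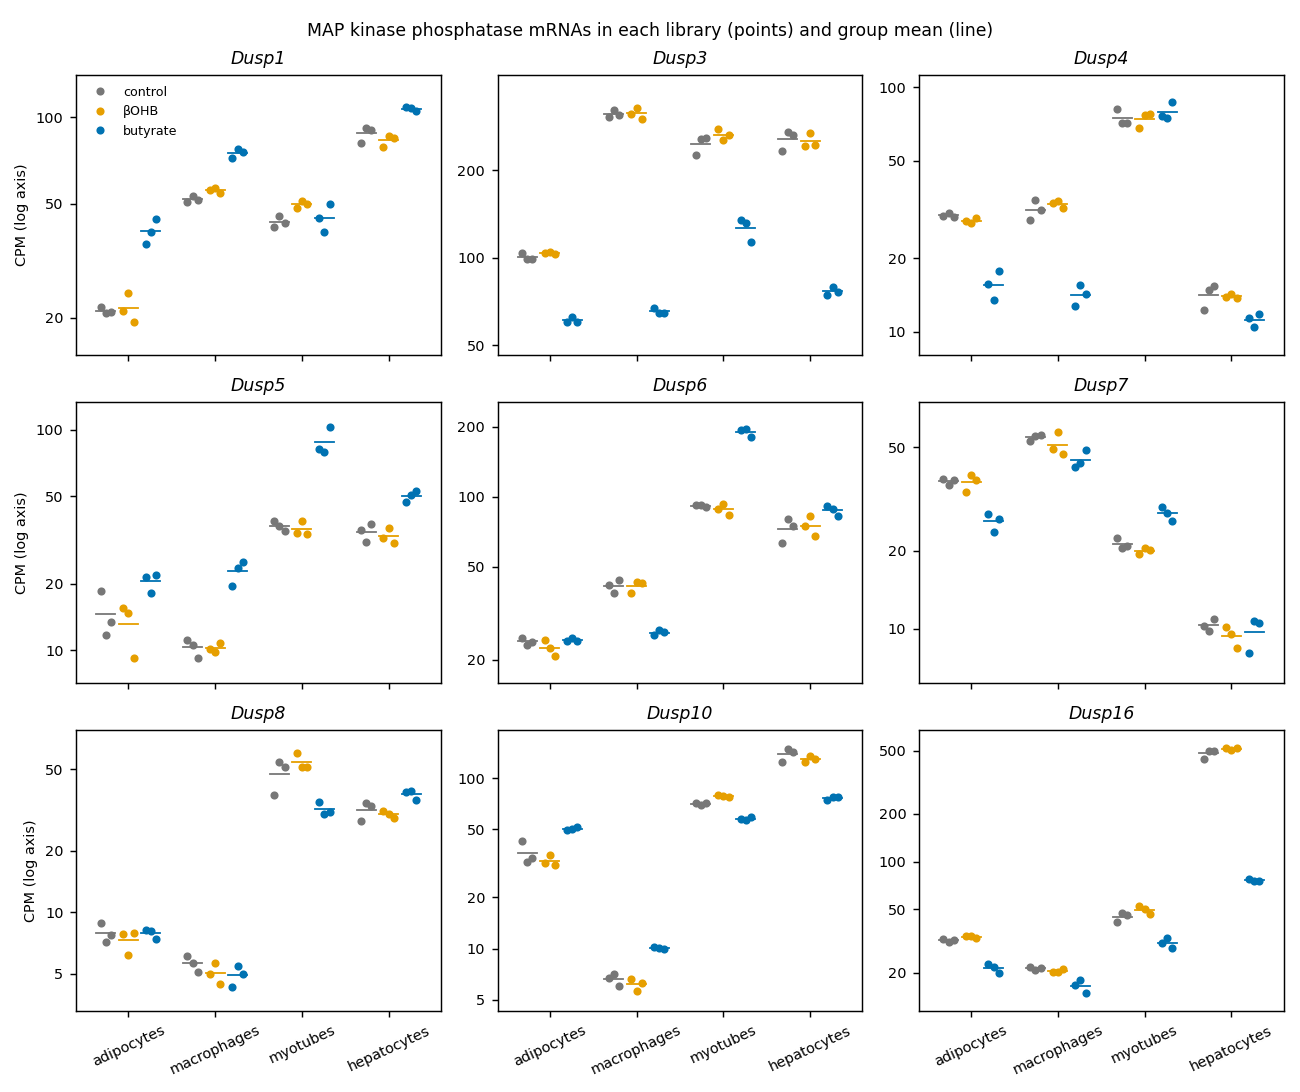
CPM of the 9 phosphatase mRNAs in each of the 36 libraries on log axes, by cell type and treatment; points are libraries and lines are means of 3. The βOHB points lie near the controls in every panel, whereas the butyrate points of *Dusp3* lie below the controls in all 4 cell types and *Dusp16* in hepatocytes drops from 446 to 502 CPM in controls to 75.3 to 78.0 CPM.

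To compare genes with each other, CPM was divided by the merged exon length in kb. By this measure, *Dusp3* was the most abundant of the 9 in control adipocytes, macrophages and myotubes, with 24.9%, 46.8% and 27.2% of the summed level. In hepatocytes, *Dusp16* ranked first with 24.6% and *Dusp3* second with 21.0%. The summed level of the 9 per kb was 86.1 ± 4.94 in adipocytes, 142 ± 3.16 in macrophages, 194 ± 3.33 in myotubes and 260.1 ± 18.9 in hepatocytes (SD, n = 3). Under butyrate, the sum was 83.1 ± 2.64, 90.0 ± 3.40, 218 ± 3.98 and 165 ± 1.84 in the same order, so that it was lower in macrophages and hepatocytes, higher in myotubes and nearly the same in adipocytes. *Dusp3* and *Dusp16* had been selected for their decreases in macrophages and hepatocytes, respectively, and both enter these sums. In macrophages, *Dusp3* per kb went from 66.6 to 14.0. Nothing is therefore read from the direction of the macrophage and hepatocyte sums. The leading gene per kb under butyrate was *Dusp10* in adipocytes (21.7% of the sum), *Dusp1* in macrophages (35.0%) and hepatocytes (27.2%) and *Dusp6* in myotubes (31.1%). *Dusp3* was not the leading gene in any butyrate group.

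**Figure D2:**
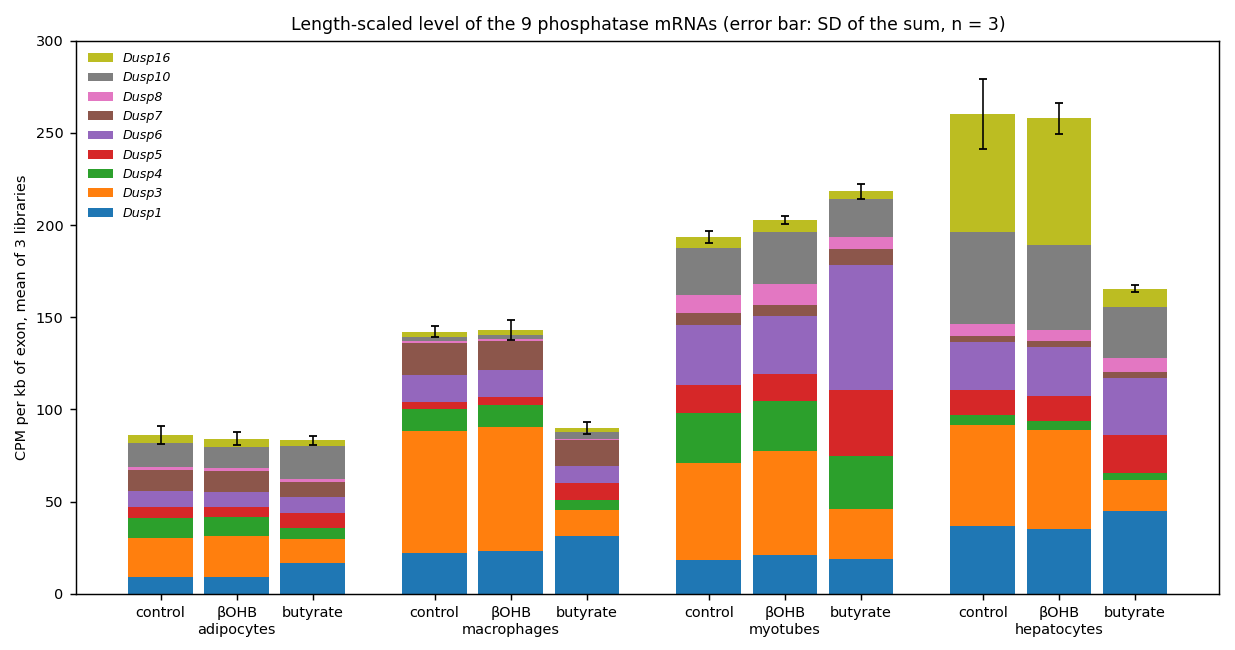
Stacked mean CPM per kb of exon of the 9 genes in the 12 groups; each colour is a gene and the error bar is the SD of the sum over 3 libraries. The *Dusp3* segment shrinks under butyrate in every cell type, the *Dusp16* segment in hepatocytes shrinks from 64.1 to 10.2, and the *Dusp6* segment in myotubes grows from 32.7 to 67.7.

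Under butyrate, 7 of the 9 genes had an FDR below 0.05 in adipocytes (3 higher and 4 lower than control), 8 in macrophages (3 and 5), 7 in myotubes (3 and 4) and 8 in hepatocytes (4 and 4). Scaled by library totals alone, macrophages had 3 higher and 3 lower, and myotubes 5 and 4. The same threshold was passed by 61.0%, 65.0%, 66.5% and 63.5% of all tested genes in these cell types, of which 30.7%, 31.9%, 33.1% and 31.0% were raised and 30.3%, 33.2%, 33.4% and 32.4% lowered. The median absolute log2 fold change of the 9 was 0.51, 0.61, 0.55 and 0.34, beside 0.42, 0.49, 0.45 and 0.54 over all tested genes. Since the genes were chosen with earlier results of these data known, nothing is read from these shares. Libraries of butyrate and control did not overlap for 6, 8, 7 and 8 of the genes, against 67.3%, 72.2%, 64.8% and 68.5% of all tested genes. By direction, *Dusp3* and *Dusp16* were below control in all 4 cell types with no overlap. *Dusp1* and *Dusp5* had log2 fold changes above 0 in all 4 with overlap in 1. For *Dusp1* in myotubes, the value of 0.05 turned negative without the filter and without butyrate replicate 3. The other members differed in direction or in overlap from 1 cell type to another. The study reports many genes lowered, and many raised, by butyrate in every cell type. The share of all tested genes with such patterns was not determined here, and nothing is read from them.

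*Dusp3*, the atypical phosphatase that acts on ERK and JNK, was lower under butyrate in all 4 cell types. In macrophages, it was at 304, 322 and 309 CPM in the controls and at 67.4, 64.6 and 64.6 CPM under butyrate. In hepatocytes, the controls were at 233, 271 and 263 CPM and the butyrate libraries at 74.7, 79.3 and 76.2 CPM. In myotubes, the values were 226, 256 and 258 CPM against 135, 132 and 113 CPM. Adipocytes, with the lowest control level, went from 104, 99.1 and 98.7 CPM to 60.1, 62.3 and 60.1 CPM. Each butyrate library was thus below each control of its cell type. The log2 fold change was -2.25 (95% interval -2.38 to -2.12) in macrophages, -1.74 (-1.87 to -1.60) in hepatocytes, -0.97 (-1.09 to -0.84) in myotubes and -0.72 (-0.86 to -0.59) in adipocytes. After butyrate, macrophages, hepatocytes and adipocytes lay within 60.1 to 79.3 CPM, although their controls spanned 98.7 to 322 CPM.

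*Dusp16*, whose product prefers JNK and p38, was lower under butyrate in all 4 cell types as well. In hepatocytes, it went from 446, 498 and 502 CPM to 78.0, 75.3 and 75.8 CPM, a ratio of the means of 6.31. The log2 fold change was -2.66 (95% interval -2.78 to -2.53). In myotubes, controls were at 41.6, 47.7 and 46.0 CPM and butyrate libraries at 30.7, 32.9 and 28.4 CPM, a log2 fold change of -0.55 (-0.68 to -0.43). In adipocytes, the log2 fold change was -0.57 (-0.71 to -0.44), with 31.0 to 32.5 CPM in controls and 19.8 to 22.7 CPM under butyrate. It was -0.36 (-0.51 to -0.22) in macrophages, with 20.8 to 21.6 CPM in controls and 15.0 to 17.9 CPM under butyrate, and scaling by library totals alone, which shifted the median of all tested genes in macrophages by 0.20, moved it to -0.14, which did not pass the FDR threshold. The hepatocyte decrease was therefore 2.29 log2 units larger than the one in macrophages, the smallest of the 4.

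The other phosphatases of the JNK and p38 group moved differently. *Dusp10* was lower in hepatocytes, at 125, 147 and 143 CPM in controls and 73.9, 77.5 and 77.0 CPM under butyrate, with a log2 fold change of -0.86 (SE 0.07). In myotubes, it was at 69.6 to 71.8 CPM in controls and 56.9 to 59.0 CPM under butyrate, a log2 fold change of -0.29 (-0.44 to -0.15). In adipocytes and macrophages, it was higher under butyrate with no overlap, from 42.5, 32.1 and 34.0 CPM to 49.2, 50.4 and 51.7 CPM in the former and from 6.70, 7.05 and 6.06 CPM to 10.3, 10.0 and 9.98 CPM in the latter. The log2 fold changes there were 0.48 (0.33 to 0.63) and 0.61 (0.42 to 0.81). *Dusp10* was the member with 2 cell types on each side of 0, all 4 without overlap.

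*Dusp8* was lower under butyrate in myotubes, at 37.6, 54.3 and 51.1 CPM in controls and 34.5, 30.3 and 30.8 CPM under butyrate, with a log2 fold change of -0.58 (95% interval -0.79 to -0.37). Control replicate 1 lay near the treated libraries. In hepatocytes, *Dusp8* was at 27.9 to 34.2 CPM in controls and 35.6 to 39.1 CPM under butyrate, a log2 fold change of 0.25 (0.03 to 0.47), which lost the FDR threshold with the replicate number as a block and without control replicate 1 (0.17), butyrate replicate 1 or butyrate replicate 2 (0.23 each). In adipocytes and macrophages, the libraries overlapped, with log2 fold changes of -0.01 (-0.28 to 0.27) and -0.19 (-0.49 to 0.12), and both turned positive with library totals alone.

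Among the inducible nuclear phosphatases, *Dusp5* was higher under butyrate throughout. In myotubes, the controls were at 38.8, 36.7 and 34.6 CPM and the butyrate libraries at 81.9, 79.4 and 103 CPM, a log2 fold change of 1.26 (95% interval 0.99 to 1.53). In macrophages, the values were 11.1, 10.5 and 9.26 CPM against 19.5, 23.7 and 25.2 CPM, a log2 fold change of 1.15 (0.83 to 1.46). Hepatocytes had a smaller difference, 0.54 (0.26 to 0.82), with 30.9 to 37.4 CPM in controls and 47.1 to 53.0 CPM under butyrate. In adipocytes, the libraries overlapped by 1 control, with 18.6, 11.7 and 13.4 CPM against 21.4, 18.3 and 21.9 CPM. The adipocyte value of 0.50 (0.19 to 0.80) was 0.36 without control replicate 2, where it did not pass the FDR threshold.

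*Dusp1*, an early response gene whose product acts on p38, JNK and ERK, was highest over control in adipocytes. It went there from 21.9, 20.8 and 20.9 CPM to 36.1, 39.9 and 44.02 CPM, a log2 fold change of 0.92 (95% interval 0.76 to 1.08). In macrophages, it went from 50.7, 53.1 and 51.5 CPM to 71.8, 77.2 and 75.5 CPM, a log2 fold change of 0.53 (0.39 to 0.68). Hepatocytes had 81.3, 91.9 and 90.0 CPM in controls and 108, 108 and 105 CPM under butyrate, a log2 fold change of 0.29 (0.14 to 0.43). Butyrate libraries were above all controls in these 3 cell types. In myotubes, 41.4, 45.4 and 42.8 CPM in controls and 44.4, 39.8 and 49.96 CPM under butyrate overlapped, and the log2 fold change was 0.05 (-0.10 to 0.20).

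*Dusp4* went the other way from *Dusp1* and *Dusp5* in 3 cell types. In adipocytes, it was at 29.7, 30.6 and 29.6 CPM in controls and 15.6, 13.5 and 17.6 CPM under butyrate, and in macrophages at 28.6, 34.5 and 31.4 CPM against 12.7, 15.6 and 14.3 CPM. The log2 fold changes were -0.94 (95% interval -1.13 to -0.76) and -1.15 (-1.33 to -0.96). In hepatocytes, the value was -0.34 (-0.56 to -0.12), with 12.2 to 15.3 CPM in controls and 10.4 to 11.8 CPM under butyrate. Myotubes, in which *Dusp4* was most abundant, overlapped between 71.3 to 81.6 CPM and 75.1 to 86.8 CPM, and the log2 fold change was 0.09 (-0.08 to 0.25). In macrophages, *Dusp1* and *Dusp5* were thus above and *Dusp4* below the control libraries.

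For *Dusp6*, the ERK phosphatase of the cytoplasm, the direction differed between cell types. In myotubes, it was above all controls, going from 92.3, 92.2 and 90.1 CPM to 193, 196 and 180 CPM, and the log2 fold change was 1.05 (95% interval 0.91 to 1.19). In macrophages, it was lower, at 42.0, 38.7 and 43.7 CPM in controls and 25.4, 26.7 and 26.3 CPM under butyrate, with a log2 fold change of -0.67 (-0.82 to -0.51). Hepatocytes had 63.5, 80.1 and 75.0 CPM in controls and 91.2, 88.6 and 82.7 CPM under butyrate, a log2 fold change of 0.26 (0.12 to 0.41). In adipocytes, control and butyrate libraries all lay between 23.1 and 24.7 CPM, and the log2 fold change was 0.02 (-0.14 to 0.18). The related *Dusp7* was higher in myotubes (20.5 to 22.3 against 26.1 to 29.5 CPM, log2 fold change 0.39, 0.21 to 0.56) and lower in adipocytes (35.7 to 37.7 against 23.5 to 27.8 CPM, -0.51, -0.68 to -0.34). In macrophages, it was at 52.8 to 55.5 CPM in controls and 41.9 to 48.7 CPM under butyrate, a log2 fold change of -0.29 (-0.45 to -0.12) that was -0.06 with library totals alone, where it did not pass the threshold. In hepatocytes, *Dusp7* overlapped, with -0.08 (-0.30 to 0.13).

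The difference in the effect of butyrate between the 4 cell types had an FDR below 0.05 for 9 of the 9 genes and for 74.5% of all tested genes, and nothing is read from this count, since it rests on the same butyrate values. Between the cell types with the highest and the lowest log2 fold change, the gap was 2.29 for *Dusp16*, 1.72 for *Dusp6*, 1.53 for *Dusp3*, 1.47 for *Dusp10* and 1.23 for *Dusp4*. It was 0.90 for *Dusp7*, 0.87 for *Dusp1*, 0.83 for *Dusp8* and 0.77 for *Dusp5*. For *Dusp3* and *Dusp16*, the gap lay within decreases of different size, and for *Dusp5* within increases, whereas *Dusp6*, *Dusp7*, *Dusp8* and *Dusp10* changed sign between cell types in which their libraries did not overlap. The share of all tested genes with such a change of sign was not determined.

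**Figure D3:**
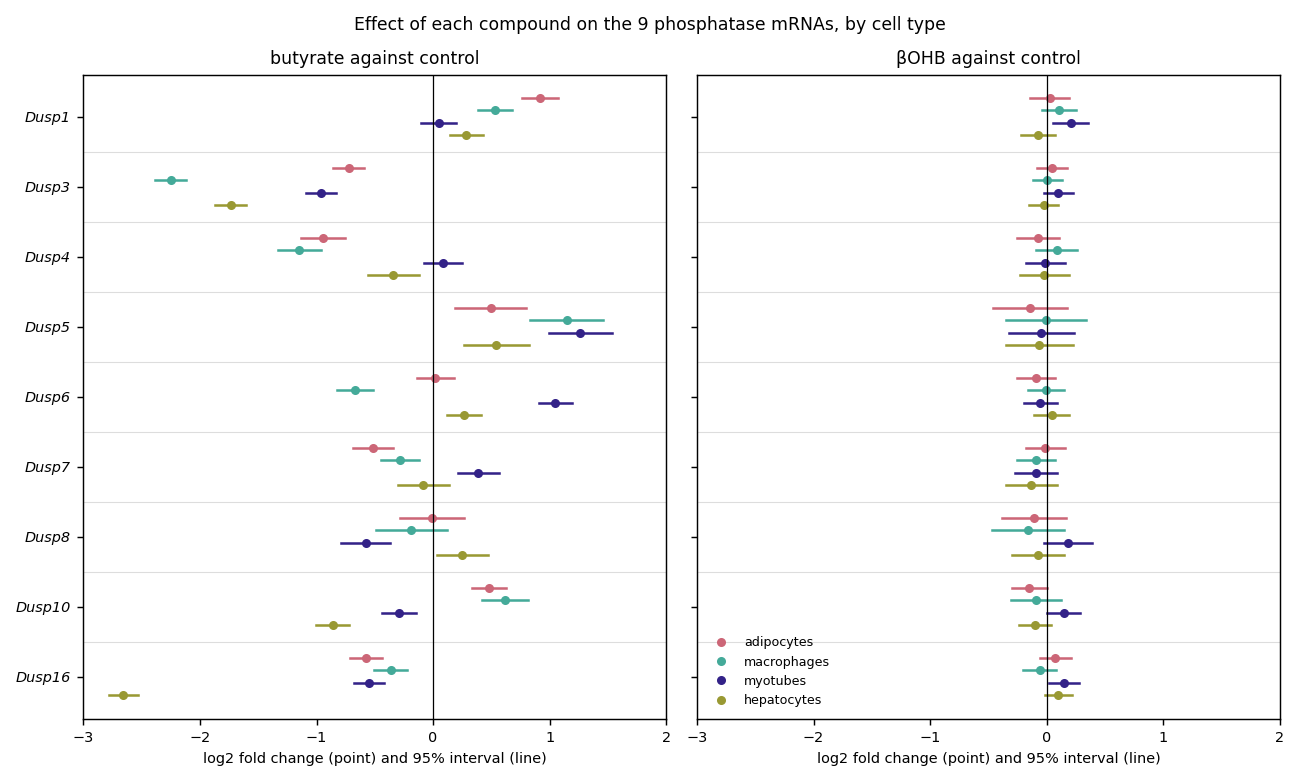
Log2 fold changes of the 9 genes under butyrate (left) and βOHB (right) relative to matched controls; points are edgeR estimates from 3 against 3 libraries and lines are 95% intervals. Butyrate estimates span -2.66 to 1.26, whereas those of βOHB span -0.16 to 0.21.

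Markers of other cell types were examined because they bear on bulk RNA, in which fewer cells of a type and less RNA per cell cannot be told apart. The defining markers of each labelled cell type were present, with summed levels of at least 6536 CPM for 6 adipocyte markers in the adipocyte libraries, 11070 CPM for 8 macrophage markers, 17670 CPM for 8 myotube markers and 31820 CPM for 7 hepatocyte markers in theirs. Adipocyte libraries also held 5491 to 9385 CPM of 5 fibroblast markers over all treatments. The same markers summed to 971 to 1705 CPM in macrophage libraries, 1133 to 1696 CPM in myotube libraries and 15.95 to 24.27 CPM in hepatocyte libraries. The 8 macrophage markers summed to 280 to 376 CPM in adipocyte libraries and 80.49 to 121.1 CPM in hepatocyte libraries. In myotubes, the 7 hepatocyte markers summed to 29.8, 539 and 123 CPM in butyrate replicates 1, 2 and 3, to at most 0.176 CPM in controls and to 0.0444 to 23.3 CPM under βOHB, and 7 of 7 rose under butyrate. The 8 macrophage markers of the myotube libraries summed to 123 to 326 CPM in controls, 45.4 to 120.2 CPM under βOHB and 17.3 to 79.3 CPM under butyrate, and 8 of 8 fell under each compound. The 8 myotube markers themselves went from 27050 to 33260 CPM to 17670 to 23380 CPM under butyrate, with 4 of 8 lowered. Without butyrate replicate 2, as with it, 7 of the 9 phosphatases had an FDR below 0.05 in myotubes, and the other 2 butyrate libraries still held hepatocyte marker RNA. Its part in the phosphatase values was not tested.

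In the other cell types, markers moved under butyrate too. The 8 macrophage markers of macrophage libraries summed to 17590 to 17750 CPM in controls and 11070 to 11680 CPM under butyrate, with 4 of 8 lowered, and 8 of 8 myotube markers rose there, to a sum of 23.4 to 71.5 CPM. In hepatocyte libraries, 5 of 5 endothelial markers fell, from 66.4 to 74.2 CPM to 20.2 to 23.6 CPM, and 3 of 6 adipocyte markers rose, from a sum of 17.2 to 19.9 CPM to 58.0 to 60.2 CPM, while 0 of 8 macrophage markers changed at an FDR below 0.05 (edgeR). In adipocyte libraries, 4 of 6 adipocyte markers, 3 of 5 endothelial markers and 2 of 8 macrophage markers fell. In each remaining pair of marker list and cell type, 0 to 3 markers changed under butyrate. The part of these shifts in the phosphatase values was not tested.

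βOHB left the 9 mRNAs near their control levels. With edgeR's quasi-likelihood test and Benjamini-Hochberg adjustment, 0 of 9 were called in each of the 4 cell types, and DESeq2 and limma-voom also called 0. Over all tested genes, 0.00652% were called in adipocytes, 0.0% in macrophages, 2.91% in myotubes and 0.00652% in hepatocytes. An unadjusted P below 0.05 was obtained for 0, 0, 3 and 0 of the members in this order, against 7.15%, 2.33%, 13.7% and 5.51% of all tested genes. Over the 36 estimates, the log2 fold change ranged from -0.16 for *Dusp8* in macrophages to 0.21 for *Dusp1* in myotubes. Libraries of βOHB and control did not overlap for 2, 1, 3 and 1 of the 9 genes, while this held for 12.7%, 11.1%, 22.9% and 6.71% of all tested genes.

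*Dusp3* and *Dusp16*, the genes below control in every cell type under butyrate, were close to control under βOHB. For *Dusp3* in macrophages, the βOHB libraries were at 313, 328 and 299.6 CPM, and the log2 fold change was 0.01 (95% interval -0.12 to 0.13, adjusted p = 1.0, edgeR). For *Dusp16* in hepatocytes, they were at 521, 509 and 520.1 CPM, above the 446, 498 and 502 CPM of the controls, with a log2 fold change of 0.10 (-0.02 to 0.22, adjusted p = 0.948, edgeR).

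The 3 genes with an unadjusted P below 0.05 were all in myotubes. The count was 4 with limma-voom, and 2 with RLE scaling, each cell type fitted alone or without βOHB replicate 3. It was 1 without control replicate 1, βOHB replicate 1 or βOHB replicate 2, with DESeq2 and without the filter on low counts. With library totals alone, it was 0. *Dusp1* was at 48.3, 51.2 and 49.9 CPM under βOHB, above the 41.4, 45.4 and 42.8 CPM of the controls, with a log2 fold change of 0.21 (SE 0.07, adjusted p = 0.152, edgeR's quasi-likelihood test). *Dusp10* was at 79.1, 78.3 and 77.9 CPM, above the controls as well, with 0.15 (SE 0.07, adjusted p = 0.339, edgeR). *Dusp16* was at 52.5, 50.4 and 47.0 CPM and overlapped the controls, with 0.15 (SE 0.06, adjusted p = 0.251, edgeR). None of these passed the threshold after adjustment. The effect of βOHB on the 9 genes did not differ between cell types at an FDR below 0.05 for any of them, with *Dusp10* at an unadjusted P of 0.0274 and an adjusted p of 0.492 (edgeR), against 0.978% of all genes called.

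Butyrate and βOHB were also set against each other at the same dose and time, as 1 pair of compounds in 4 cell types. The control libraries do not enter the difference itself, but they enter the scaling and the estimate of spread. The comparison also uses the butyrate libraries on which *Dusp3* and *Dusp16* were selected, so the differences are given as a description from which nothing is read. The FDR was below 0.05 for 7 of 9 genes in adipocytes, 8 in macrophages, 7 in myotubes and 8 in hepatocytes, against 59.5%, 64.7%, 66.0% and 63.5% of all tested genes. The log2 difference was -2.76 (95% interval -2.88 to -2.63) for *Dusp16* in hepatocytes and -2.26 (-2.39 to -2.12) for *Dusp3* in macrophages, the gene and cell type pairs selected for their butyrate values. It was -1.71 (-1.84 to -1.58) for *Dusp3* in hepatocytes. On the positive side, it was 1.31 (1.04 to 1.58) for *Dusp5* in myotubes, 1.15 (0.84 to 1.47) for *Dusp5* in macrophages and 1.10 (0.96 to 1.25) for *Dusp6* in myotubes. *Dusp7* in macrophages, at -0.19 (-0.36 to -0.03), was the weakest of those called. It did not pass with library totals alone (0.03), without the filter on low counts (-0.20), with each cell type fitted alone (-0.16), with the replicate number as a block (-0.19) or without βOHB replicate 2 (-0.10), butyrate replicate 1 (-0.13) or butyrate replicate 2 (-0.16). Those not called were *Dusp6* (0.11, -0.05 to 0.27) and *Dusp8* (0.10, -0.18 to 0.38) in adipocytes, *Dusp8* in macrophages (-0.03, -0.34 to 0.28), *Dusp1* (-0.16, -0.31 to -0.01) and *Dusp4* (0.10, -0.07 to 0.26) in myotubes and *Dusp7* in hepatocytes (0.05, -0.17 to 0.27). The interval of *Dusp1* lay below 0 before adjustment. For the others, a difference within the interval was not detectable with 3 libraries a group.

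*Dusp2* and *Dusp9*, the remaining catalytically active members of the MAP kinase phosphatase family, were not among the 9 and were tested in all comparisons. They too were listed with earlier results of these data known, so their butyrate p-values, here and below, may not be independent of that choice. *Dusp2*, a nuclear phosphatase best known from immune cells, was at 10.3, 11.2 and 10.7 CPM in control myotubes and 24.7, 23.0 and 20.6 CPM under butyrate, so that it rose by 1.09 on the log2 scale (SE 0.14, adjusted p = 7.51e-08, edgeR). In macrophages, it rose from 1.23, 1.31 and 1.43 CPM to 3.30, 2.73 and 3.85 CPM, a log2 fold change of 1.31 (SE 0.21, adjusted p = 2.16e-06, edgeR). In adipocytes and hepatocytes, *Dusp2* was below 1 CPM in every library and did not pass the threshold (log2 fold changes -0.49 and -0.32, adjusted p = 0.265 and 0.689, edgeR). *Dusp9*, a cytoplasmic ERK phosphatase, rose in macrophages from 4.07, 3.68 and 3.76 CPM to 8.22, 8.07 and 7.78 CPM, a log2 fold change of 1.06 (SE 0.23, adjusted p = 0.000153, edgeR). In hepatocytes, it rose from 1.38, 0.246 and 1.01 CPM to 2.60, 2.08 and 1.98 CPM (1.34, SE 0.36, adjusted p = 0.00157, edgeR). In myotubes and adipocytes, its log2 fold changes of 0.43 and 0.41 had adjusted p of 0.0999 and 0.257 (edgeR). Under βOHB, neither gene passed the threshold in any cell type, with log2 fold changes of -0.62 to 0.20 and the lowest adjusted p at 0.583 (edgeR).

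Against βOHB, butyrate raised *Dusp2* in macrophages (log2 difference 1.13, adjusted p = 1.60e-05, edgeR) and myotubes (0.88, adjusted p = 2.22e-06, edgeR). It raised *Dusp9* in macrophages (0.90, adjusted p = 0.000895, edgeR), hepatocytes (1.23, adjusted p = 0.00231, edgeR) and myotubes (0.57, adjusted p = 0.0309, edgeR), the last of which was lost without βOHB replicate 1 (0.47), βOHB replicate 3 (0.53) or butyrate replicate 3 (0.42). The effect of butyrate on *Dusp2* differed among cell types (adjusted p = 0.00133, edgeR), and that on *Dusp9* did not pass the threshold (adjusted p = 0.0936, edgeR).

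The rest of the MAP kinase cascades was followed in 7 lists of 77 genes, of which 72 were tested. Under butyrate, 31 of the 72 rose and 25 fell in adipocytes, 33 and 25 in macrophages, 34 and 22 in myotubes and 33 and 27 in hepatocytes. In macrophages, the split was 41 raised and 12 lowered when scaled by library totals alone, and without the filter on low counts it was 25 and 27 in adipocytes. These counts of 56, 58, 56 and 60 can be set beside 61.0%, 65.0%, 66.5% and 63.5% of all tested genes. The median log2 fold change over the 72 was 0.12, 0.07, 0.19 and 0.03, beside 0.00, 0.00, 0.00 and -0.01 over all tested genes. By list, which was not tested, the MAP kinases had 6 raised and 1 lowered of 9 in adipocytes, 5 and 1 in macrophages, 7 and 1 in myotubes and 5 and 3 in hepatocytes. MAP kinase substrates had 8 raised and 3 lowered of 12 in adipocytes, 6 and 4 in macrophages, 8 and 2 in myotubes and 9 and 3 in hepatocytes. Of all tested genes, 30.7% were raised and 30.3% lowered in adipocytes, 31.9% and 33.2% in macrophages, 33.1% and 33.4% in myotubes and 31.0% and 32.4% in hepatocytes.

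**Figure D4:**
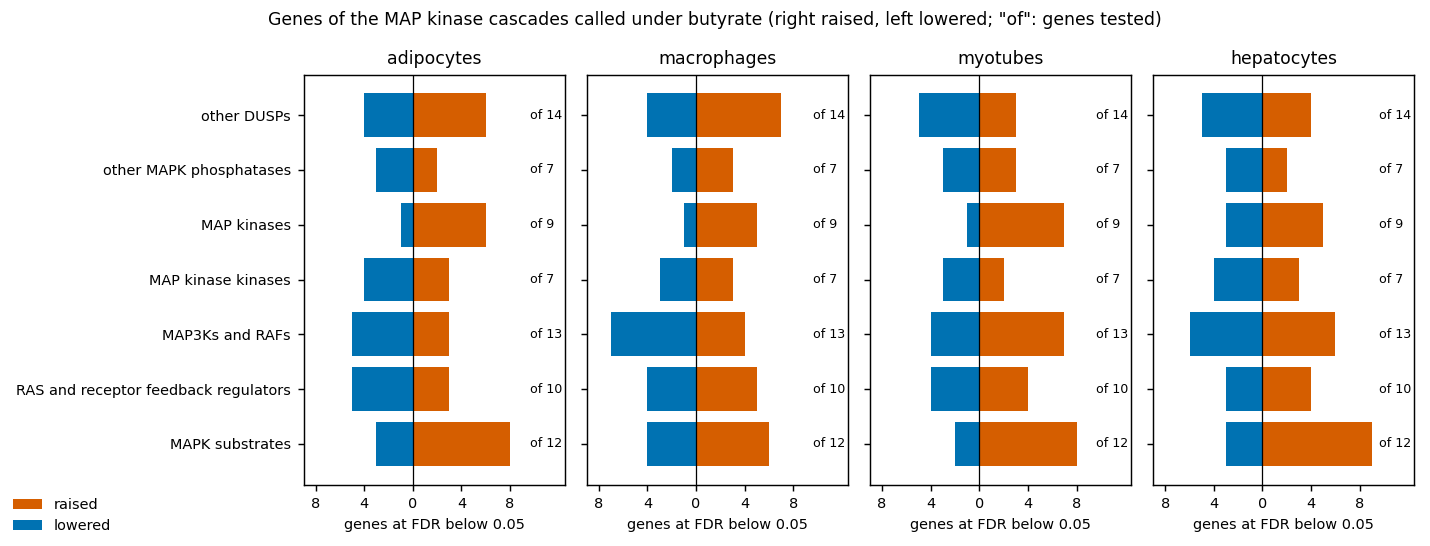
Number of genes raised (right) and lowered (left) by butyrate at an FDR below 0.05 in each list of the MAP kinase cascades and each cell type, with the number tested at the right. The MAP kinases have 6 raised and 1 lowered gene of 9 in adipocytes and 5 and 3 in hepatocytes.

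The pathway genes below were named by a rule that took the gene raised and the gene lowered in the most cell types from each list, so that their shared directions follow from the choice and their butyrate values are a description, with no p-value. Among the kinases, *Mapk9*, which encodes the JNK2 kinase, rose in all 4 cell types, from 71.9 ± 1.29 to 143 ± 1.52 CPM in adipocytes (SD, n = 3), with log2 fold changes of 0.99, 0.99, 0.74 and 0.56 in adipocytes, macrophages, myotubes and hepatocytes. *Mapk7*, which encodes ERK5, fell in all 4, by 0.24, 0.78, 0.32 and 0.95 on the log2 scale in the same order. Upstream of JNK, *Map2k7* fell in every cell type, from 52.3 ± 2.89 to 14.1 ± 1.28 CPM in hepatocytes (log2 fold change -1.90, SE 0.07), by 1.74 and 1.78 on the log2 scale in adipocytes and macrophages, and from 55.2 ± 0.870 to 22.4 ± 2.50 CPM in myotubes. Upstream of p38, *Map2k6* rose in every cell type, from 3.02 ± 0.522 to 28.6 ± 0.458 CPM in hepatocytes (3.24, SE 0.16) and by 1.62 to 2.74 in the others. *Map3k4*, a kinase upstream of p38 and JNK, rose by 0.33 to 0.72. *Mapk7* in adipocytes did not pass with library totals alone (-0.15).

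Among the remaining phosphatases and regulators, *Dusp14* rose from 0.872 ± 0.0669 to 8.12 ± 1.02 CPM in adipocytes (log2 fold change 3.21, SE 0.15) and also in macrophages (2.00) and hepatocytes (1.89), whereas it fell in myotubes, where its control level was highest, from 60.1 ± 4.69 to 45.7 ± 1.70 CPM (-0.39, SE 0.08). *Dusp13*, a muscle and testis phosphatase, fell from 20.4 ± 1.43 to 9.66 ± 1.01 CPM in myotubes (-1.07, SE 0.15). In hepatocytes, it fell from 1.41 ± 0.248 to 0.379 ± 0.0375 CPM (-1.88, SE 0.36). Elsewhere it was at 1.80 CPM or less, and its decreases in adipocytes and macrophages (-1.05 and -0.77) did not pass with library totals alone or without single libraries, such as butyrate replicate 1 (-0.62 and -0.59). *Ppp2ca*, the catalytic subunit of protein phosphatase 2A, fell by 0.26 to 0.51 on the log2 scale, and *Ppm1d*, a p38 phosphatase, rose by 0.23 to 0.99. *Nf1*, a RAS GTPase-activating protein, fell by 0.27 to 0.51, and *Lrig1*, a brake on growth factor receptors, rose by 0.44 to 1.35. Of the kinases downstream of MAP kinases, *Rps6ka2* rose by 1.25 to 1.75 and *Rps6ka4* fell by 0.27 to 0.59. In macrophages, *Ppp2ca*, *Nf1* and *Rps6ka4* were at -0.03, -0.04 and -0.14 with library totals alone, where they did not pass, and *Rps6ka4* in myotubes (-0.27) did not pass in 8 of its alternatives.

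Under βOHB, 0 of the 72 genes passed the FDR threshold in adipocytes, macrophages and hepatocytes, and 2 did in myotubes, against 0.00652%, 0.0%, 0.00652% and, in myotubes, 2.91% of all tested genes. The count in myotubes was thus near the share of all genes, and both genes are given as values. *Ptpn7*, a tyrosine phosphatase of blood cells that acts on ERK and p38, went from 4.68, 3.83 and 2.38 CPM to 1.06, 0.711 and 1.38 CPM (log2 fold change -1.78, SE 0.23, adjusted p = 5.90e-05, edgeR). It was not called with each cell type fitted alone (-1.82, adjusted p = 0.287, edgeR). It was at 79.5 ± 2.88 CPM in macrophage controls (SD, n = 3), and the 8 macrophage markers fell in the same myotube libraries. *Ppm1b*, a phosphatase of stress kinases, went from 170.2, 176 and 184 CPM to 215, 207 and 199.9 CPM (0.23, SE 0.06, adjusted p = 0.0313, edgeR), and was not called without control replicate 1 (0.20), control replicate 2 (0.23), βOHB replicate 1 (0.20) or βOHB replicate 2 (0.23). Its call was also lost with RLE scaling, library totals alone, no filter, each cell type fitted alone and the replicate block, at 0.17 to 0.23.

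As a description, the genes whose log2 CPM followed *Dusp3* most closely over the 36 libraries were *Flii* (Pearson r = 0.975), *Mafg* (0.957) and *Smarca4* (0.954). For *Dusp16*, they were *Tnfaip1* (0.984), *Ilk* (0.976) and *Txnl1* (0.969), and for *Dusp6*, *Otud1* (0.932), *Ankrd1* (0.931) and *Slc13a5* (0.930). All of these values come from the same libraries and groups, which the correlation shares with the differences between cell types and treatments. In the annotation, exons of 4 of the 9 genes overlap exons of a gene on the opposite strand. The strand setting of the counting is not given in the sources used here, so such reads cannot be told apart. The overlapped genes were at most 0.0607 CPM in control groups for *Dusp3*, *Dusp5* and *Dusp8*, whereas *Ergic1*, which shares 11 bases with *Dusp1*, was at 127 to 202 CPM.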

How the data were processed

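Estimated counts per gene were deposited by the authors in 1 table of 36 libraries, made from paired-end reads of 150 bp with Salmon 1.2.1 and summarised per gene. The study's methods describe a scaling by length and library size. Totals in the table ranged from 18366289 to 23221473 (median 22177562), and 64.1% of the values above 0 were whole within 0.0051. The values were rounded to whole numbers before testing. Symbols from GENCODE M21 matched 54094 of 54347 gene identifiers.

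Genes above 1 CPM in at least 6 libraries (15340) were fitted with edgeR 4.0.16 (R 4.3.3) by the quasi-likelihood test with TMM scaling, 1 mean for each of the 12 groups and all 36 libraries. P-values were adjusted by the Benjamini-Hochberg method over all tested genes, and an FDR below 0.05 was the threshold. An exact permutation test of 3 against 3 libraries cannot go below p = 0.1 and was not used. Counting error at this depth was smaller than the spread between replicate libraries, and every pair of replicates differed beyond sampling noise. Fits were tested on simulated counts with known changes.

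The 9 genes, the pathway lists and the marker lists were chosen with earlier results of these data known. The pathway genes named were, for each list, the gene raised and the gene lowered in the most cell types under butyrate, ties going to the smallest product of P, and every list gene called under βOHB. Of the genes so taken, 1 is not reported here. The genes most like a member were the 3 with the highest Pearson r of log2 CPM over 36 libraries, for *Dusp3*, *Dusp6* and *Dusp16*.

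As alternatives, other tests were run (limma-voom with limma 3.58.1 and DESeq2 1.42.0), other scalings (RLE factors, or totals without factors), other filters (none, or a count above 20 in 6 or more libraries), a fit of each cell type by itself, a fit blocked on replicate number, fits with each library left out, and a prior count of 0.5 instead of 2 for log2 CPM. They were extended to the single pathway genes after the data were seen.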

Additional observations from a re-analysis of the deposited data

Results flagged for a closer look

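The results below were singled out because the effect of butyrate differed between cell types, by a test of the interaction in edgeR with Benjamini-Hochberg adjustment, which 74.5% of all tested genes passed. Groups of 3 libraries are too small for a test of single outlying libraries. For the 9 phosphatases, which were chosen with earlier results of these data known, only the gap between the highest and the lowest log2 fold change is given. It was 2.29 for *Dusp16* (macrophages above hepatocytes), 1.72 for *Dusp6* (myotubes above macrophages), 1.53 for *Dusp3* (adipocytes above macrophages), 1.47 for *Dusp10* (macrophages above hepatocytes) and 1.23 for *Dusp4* (myotubes above macrophages). It was 0.90 for *Dusp7* (myotubes above adipocytes), 0.87 for *Dusp1* (adipocytes above myotubes), 0.83 for *Dusp8* (hepatocytes above myotubes) and 0.77 for *Dusp5* (myotubes above adipocytes).

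*Dusp2*, also listed with earlier results known, had a gap of 1.80 between macrophages and adipocytes (adjusted p = 0.00133, edgeR), with levels below 1 CPM in the adipocyte libraries. The pathway genes that follow were taken by a rule that used their butyrate values, so these values are not independent of that choice. Only their gaps are given, with no p-value. Among them, *Dusp14* had the widest gap, 3.61 between adipocytes and myotubes. It was the only one of the named pathway genes with increases in 3 cell types and a decrease in 1. *Map2k6* had the next widest of these, 1.62 between hepatocytes and myotubes, and *Lrig1* had 0.90 between macrophages and adipocytes. The gap was 0.76 for *Ppm1d*, 0.71 for *Mapk7*, 0.59 for *Map2k7*, 0.50 for *Rps6ka2*, 0.44 for *Mapk9*, 0.39 for *Map3k4* and 0.26 for *Ppp2ca*. The myotube libraries under butyrate carried hepatocyte marker RNA of 29.8 to 539 CPM, and its part in the gaps that involve myotubes was not tested.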

How the results depend on the processing

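The total counts of the 9 genes passing the threshold stayed within 1.5 times under every alternative, but with library totals alone the genes lowered in macrophages went from 5 to 3 and those raised in myotubes from 3 to 5. Leaving out single libraries gave 6 to 7 in adipocytes, 8 in macrophages, 7 in myotubes and 7 to 8 in hepatocytes under butyrate, and 0 under βOHB. With library totals alone, the median of all tested genes shifted by 0.20 in macrophages and 0.13 in myotubes under butyrate, and by 0.21 and 0.20 for butyrate against βOHB. *Dusp1* (0.19) and *Dusp4* (0.22) then passed in myotubes, as did *Dusp9* (0.57, and 0.45 with each cell type fitted alone). Butyrate against βOHB was then lost for *Dusp4* in hepatocytes (-0.24) and *Dusp16* in macrophages (-0.08), and gained for *Dusp6* in adipocytes (0.23) and *Dusp4* in myotubes (0.30). *Dusp6* in hepatocytes was lost without βOHB replicate 3 (0.15), *Dusp9* in adipocytes was gained without βOHB replicate 1 (0.96), and *Dusp1* in myotubes passed with limma-voom (-0.16) and without butyrate replicate 3 (-0.24). The difference of the butyrate effect on *Dusp9* between cell types passed without the filter, without myotube butyrate replicate 3 and without hepatocyte control replicate 1. The causes were not tested.

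Signs turned for values near 0. Under butyrate, *Dusp1* in myotubes and *Dusp6* in adipocytes turned negative in 2 settings each, *Dusp7* in hepatocytes turned positive in 1, and *Dusp8* turned positive in 5 settings in adipocytes and in 1 in macrophages. *Dusp1* under βOHB in adipocytes was -0.0068 with library totals alone, *Dusp6* under βOHB in macrophages was 0.0004 with DESeq2 and 0.0007 with RLE scaling, *Dusp7* against βOHB in macrophages was 0.0342 with library totals alone, and *Dusp2* against βOHB in hepatocytes was -0.0378 with limma-voom. With single libraries left out, values under βOHB ranged in adipocytes from -0.0656 to 0.0997 for *Dusp1*, -0.2942 to 0.071 for *Dusp5*, -0.0576 to 0.0455 for *Dusp7* and -0.5495 to 0.1913 for *Dusp9*. They ranged in macrophages from -0.0271 to 0.0377 for *Dusp3*, -0.0793 to 0.0542 for *Dusp5* and -0.0515 to 0.044 for *Dusp6*, and in myotubes from -0.0471 to 0.0559 for *Dusp4*. In hepatocytes, they ranged from -0.0899 to 0.018 for *Dusp3*, -0.1106 to 0.0452 for *Dusp4*, -0.0468 to 0.1156 for *Dusp6* and -0.3329 to 0.5718 for *Dusp9*. *Dusp2* ranged from -0.6455 to 0.1412 under butyrate in hepatocytes, and against βOHB from -0.2851 to 0.3205 in adipocytes and -0.1731 to 0.6136 in hepatocytes. Butyrate against βOHB also ranged from -0.1054 to 0.0797 for *Dusp8* in macrophages and from -0.0277 to 0.1717 for *Dusp7* in hepatocytes.

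The count of 2 pathway genes called under βOHB in myotubes was 1 with RLE scaling, 0 with each cell type fitted alone, and 1 to 3 when a library was left out. *Ptpn7* was lost with each cell type fitted alone (-1.82), and *Ppm1b* was lost in those settings and also with library totals alone (0.17) and without the filter (0.19). Under butyrate, *Dusp13* in adipocytes was also lost with each cell type fitted alone (-1.05), *Ppm1d* in macrophages without the filter (0.22), *Nf1* in macrophages without butyrate replicate 3 (-0.21), and *Rps6ka4* in myotubes with DESeq2 (-0.24), RLE scaling (-0.24) and each cell type fitted alone (-0.24).

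Same-numbered libraries did not deviate together (36 correlations from -0.264 to 0.273), so the numbers were not taken to pair the samples. With the replicate number as a block, 7, 8, 7 and 7 of the 9 genes passed under butyrate and 0 under βOHB, *Dusp8* in hepatocytes being lost (0.25), and 1 pathway gene passed under βOHB in myotubes.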
